A study of Mus musculus with 8 samples.

Results

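Serpins, inter-alpha-trypsin inhibitor chains and 4 related plasma proteins were compared between normal mouse liver and liver tumours driven by human c-MYC. Members were taken by gene symbol: every serpin of clades A to I with a numbered symbol, every numbered Itih gene, and Ambp, A2m, Pzp, Fetub and Ahsg. Of 19937 genes measured by a probe set of their own, 58 were members: 19 serpins of clades A, C, D and F, and 39 others. Total RNA of 4 control livers and 4 tumours was hybridised in 1 colour to Affymetrix mouse gene ST arrays, with 1 array per sample. By the labels, the tumours arose in mice that overexpress human c-MYC in the liver from a doxycycline-controlled CEBPB-LAP promoter, which drives the transgene in hepatocytes, and were collected at the humane endpoint; the control livers were normal livers of matched mice. The labels give the same transgene text for all 8 samples and do not say whether the controls carried it or received doxycycline, and strain, age and sex were not given. Samples carry numbers only, with no mouse named for any of them, and p-values therefore cover the spread among these 8 samples, part of which may be technical.

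Serpins inhibit proteases by a suicide mechanism: the target cuts an exposed reactive loop, the serpin snaps shut and the protease stays trapped. The liver secretes most plasma serpins, among them alpha-1-antitrypsin and antithrombin, while clade B serpins act mainly inside cells and some serpins have no inhibitory role and carry hormones or fold collagen. Inter-alpha-trypsin inhibitors join heavy chains (Itih genes) to bikunin, a light chain cut from the Ambp precursor, and pass the heavy chains to hyaluronan in the extracellular matrix. The macroglobulins A2m and Pzp trap proteases of several classes in a cage, and the fetuins Ahsg and Fetub are cystatin-family proteins of plasma.

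The deposited values are log2 RMA values, so a difference of 1 is a doubling. The 1027 olfactory receptor genes, which liver is not known to use, had a median of 4.55 and a 95th percentile of 6.20 over the 8 arrays, and 6.20 is used below as the background level. At least 1 group mean lay above it for 31 of the 58 members. The other 27 members had both means at or below it, and were not shown to have a signal in either group. Changes are tumours minus controls with the SE from limma, group means carry the SD of 4 arrays, and a gene is called past an adjusted p of 0.05 in limma over all genes.

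In the tumours 20 of the 58 members were lower (34.5%) and 3 were higher (5.17%). Over all genes tested, 12.7% were lower and 16.2% higher. A fall of at least 1 on the log2 scale was called for 13 members (22.4%) and one of at least 3 for 5 (8.62%), against 4.68% and 0.993% of all genes. The median change was -0.25 for the members against -0.04 for all genes. Of the 19 serpins of clades A, C, D and F 10 were lower and none higher, with a median of -0.62, and all 19 changes were negative in sign, as were 11153 of all 19937 genes. Of these 19, 5 had both means at background, and among all 27 members at background 24 changes were negative. At an unadjusted p under 0.05 none of these 19 was higher either. The 39 others had 10 lower and 3 higher members, with a median of -0.19, and they split by type. Of the 24 clade B serpins 3 were lower and 1 higher, with a median of -0.18, and 20 of the 24 had both group means at background. Of the 15 remaining members, which are the inter-alpha-trypsin chains, macroglobulins, fetuins and serpins of clades E, G, H and I, 7 were lower and 2 higher, with a median of -0.52. All 4 tumours lay below all 4 controls for 21 members (36.2%), against 13.9% of all genes, and above them for 3 members, against 16.3% of all genes. No test of 1 group of members against another was made, and the groups differ in how many members were above background.

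**Figure D1:**
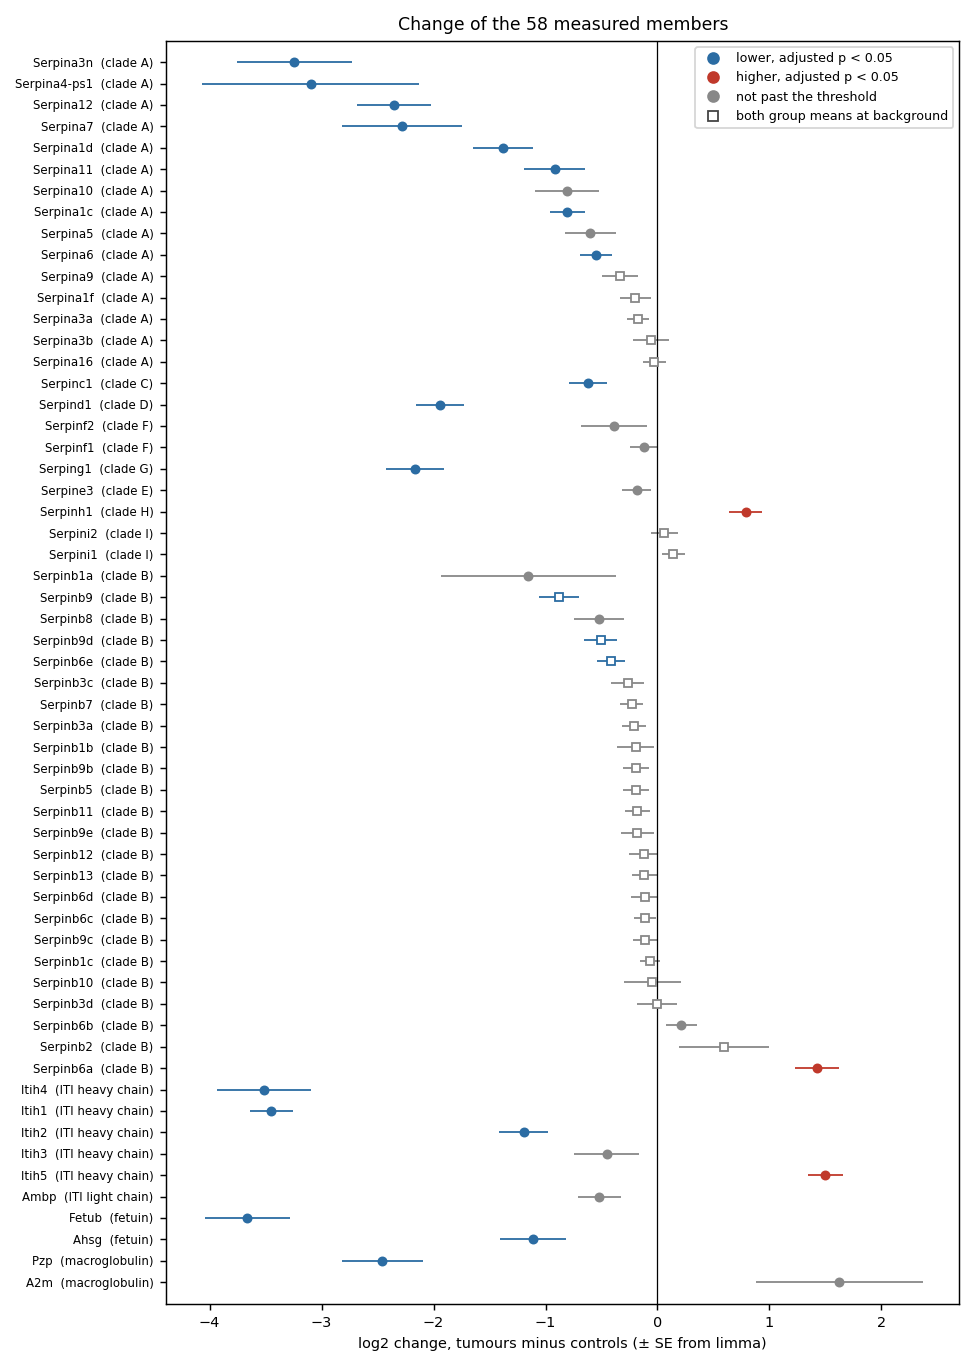
Change of the 58 members on the log2 scale, tumours minus controls, with the SE of the limma fit as bars, grouped by clade or family. Filled circles had at least 1 group mean above background and open squares had both means at background; blue marks the 20 lower members, red the 3 higher members, and the serpins of clades A, C, D and F lie left of 0, as do 24 of the 27 members at background and 11153 of all 19937 genes.

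**Figure D2:**
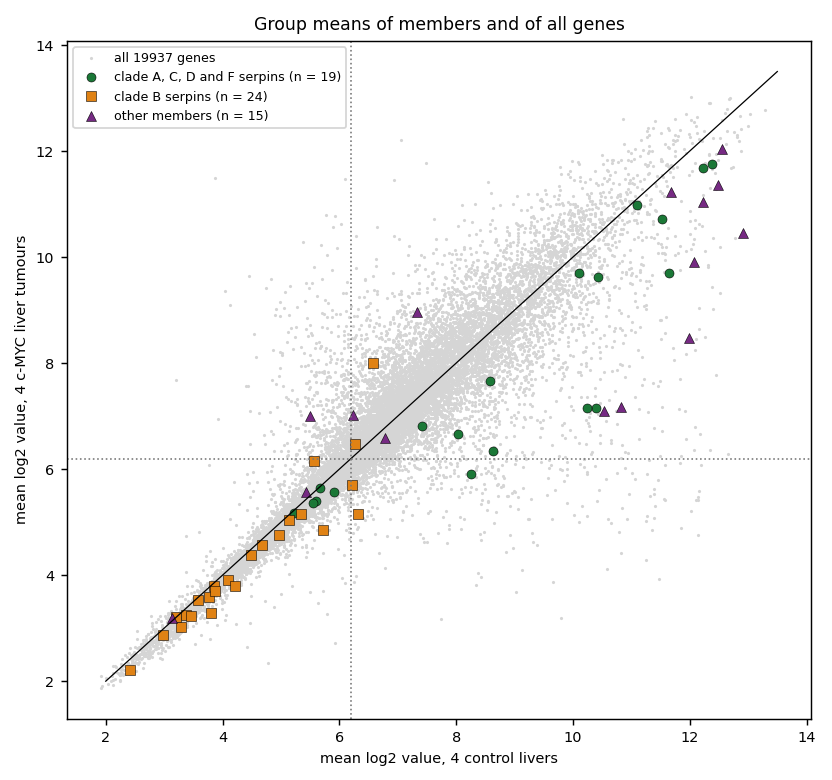
Mean log2 value in 4 tumours against the mean in 4 control livers, for members by type and for all 19937 genes in grey, with the line of equality and the background level of 6.20 as dotted lines. Most clade B serpins sit below the dotted lines near the line of equality. Of the 31 members above background in at least 1 group, 26 lie below the line of equality. The same holds for 24 of the 27 members at background and for 11153 of all 19937 genes.

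Bright members sat near the top of the scale. The highest value on any array was between 13.41 and 13.56, and the control means of Pzp, Ambp, Ahsg, Serpinc1, Itih2, Serpina6 and Serping1 were between 12.08 and 12.92. How far the change of such members is compressed by the upper end of the scale was not tested. The tissue markers were those of liver: both group means of all 8 hepatocyte markers were above background. All 8 were lower in the tumours, against 12.7% of all genes, with a median of -0.62. Their changes ran from -0.33 to -6.38, the latter for Cyp2e1. The tumour means of Cyp2e1 (6.28) and Tat (6.37) were close to background. Cyp2e1 was under it in tumours 2 and 3 and Tat in tumour 1, so the sizes of these falls are limits. The mean level of the 8 markers was 12.10 to 12.33 in controls and 10.15 to 10.40 in tumours. In such bulk tissue, fewer cells of a type and less RNA per cell cannot be told apart.

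The promoter sequences of the members that fell and held letters of a C/EBP site are shown here because C/EBP factors are known activators of plasma protein genes in hepatocytes. RefSeq promoters (build GRCm38.p6, 250 bases before to 50 after the start) were matched for 50 of the 58 members by symbol, and the first listed window of a gene was used. Searching both strands for TTGCNNAA found a match in 12 of 50 members, in 7 of 15 serpins of clades A, C, D and F, in 3 of 22 clade B serpins and in 6 of 17 members that were lower. Over the promoters of 15562 genes on the arrays the share was 9.68%. The 6 lower members with a match follow, 5′ to 3′ on the gene's strand, with the match in capitals.

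Serpinc1, chr1:160978333-160978632, plus strand: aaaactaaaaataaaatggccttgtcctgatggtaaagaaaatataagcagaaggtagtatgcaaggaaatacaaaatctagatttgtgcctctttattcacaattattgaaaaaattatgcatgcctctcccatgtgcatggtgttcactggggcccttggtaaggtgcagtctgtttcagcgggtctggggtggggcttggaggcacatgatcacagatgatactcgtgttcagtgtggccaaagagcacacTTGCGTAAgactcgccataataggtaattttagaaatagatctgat
Serpina1d, chr12:103773584-103773883, minus strand: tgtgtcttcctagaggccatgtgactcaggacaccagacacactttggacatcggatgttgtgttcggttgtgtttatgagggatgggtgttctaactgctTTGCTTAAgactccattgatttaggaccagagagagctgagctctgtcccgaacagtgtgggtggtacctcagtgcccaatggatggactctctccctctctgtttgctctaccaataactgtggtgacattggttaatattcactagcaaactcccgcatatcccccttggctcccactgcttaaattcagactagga
Serpina7, chrX:139085187-139085486, minus strand: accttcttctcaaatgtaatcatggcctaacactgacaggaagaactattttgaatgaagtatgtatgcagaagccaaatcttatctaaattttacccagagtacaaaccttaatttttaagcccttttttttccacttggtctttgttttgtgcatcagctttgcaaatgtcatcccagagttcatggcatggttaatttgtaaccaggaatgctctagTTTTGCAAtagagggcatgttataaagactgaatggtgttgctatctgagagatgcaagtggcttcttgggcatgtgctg
Serpina12, chr12:104044394-104044693, minus strand: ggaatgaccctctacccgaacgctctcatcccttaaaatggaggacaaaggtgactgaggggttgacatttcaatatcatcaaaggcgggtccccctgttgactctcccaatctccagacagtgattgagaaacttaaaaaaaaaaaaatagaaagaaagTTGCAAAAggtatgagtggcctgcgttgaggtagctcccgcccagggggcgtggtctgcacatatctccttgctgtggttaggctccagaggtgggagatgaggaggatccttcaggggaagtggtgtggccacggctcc
Ahsg, chr16:22891765-22892064, plus strand: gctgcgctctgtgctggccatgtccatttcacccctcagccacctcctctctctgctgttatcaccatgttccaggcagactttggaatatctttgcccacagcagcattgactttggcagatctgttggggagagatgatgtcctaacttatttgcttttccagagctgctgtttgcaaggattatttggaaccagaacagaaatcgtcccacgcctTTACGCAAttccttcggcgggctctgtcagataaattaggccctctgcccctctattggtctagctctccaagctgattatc
Itih2, chr2:10130634-10130933, minus strand: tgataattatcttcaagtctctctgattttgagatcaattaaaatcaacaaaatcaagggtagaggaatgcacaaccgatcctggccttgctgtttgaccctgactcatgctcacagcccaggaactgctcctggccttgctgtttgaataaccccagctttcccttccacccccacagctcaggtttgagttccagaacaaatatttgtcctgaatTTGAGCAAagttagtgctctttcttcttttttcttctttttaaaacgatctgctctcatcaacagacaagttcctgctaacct

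The matches of Serpina7, Ahsg and Itih2 began at bases -30, -32 and -33 from the start, those of Serpina12 and Serpina1d at -90 and -149, and that of Serpinc1 at 4. The palindromic STAT letters TTCNNNGAA occurred in 6 of the 50 promoters, Itih4, Serpina11 and Serpinb6a among them, against 7.85% of the genes on the arrays. The letters CACGTG (E-box), CAAAGTCCA (HNF4) and TGTTTAC (FOXA) were searched in the same way, as was 1 string of 11 letters for HNF1. None was in any of the 50 windows, against 8.40%, 0.450%, 3.03% and 0.122% of the genes on the arrays. The HNF4 and HNF1 strings are so rare that finding none in 50 windows cannot show that such sites are absent. Sites that differ from these strings were not searched for. No match overlapped one of another kind. A match describes letters in this window and nothing about binding.

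Antithrombin and heparin cofactor II, the serpins that stop thrombin, fell by different amounts. Serpinc1, which encodes antithrombin, read 12.28, 12.31, 12.43 and 12.53 in control livers 1 to 4 and 11.95, 11.99, 11.92 and 11.20 in tumours 1 to 4. All tumours lay below all controls, tumour 4 the lowest, and the change was -0.62 (SE 0.17, adjusted p = 0.0189 in limma). Serpind1, heparin cofactor II, read 11.76, 11.49, 11.67 and 11.65 in controls and 9.73, 10.26, 9.78 and 9.02 in tumours, a 3.85-fold fall (-1.94, SE 0.22, adjusted p = 6.41e-05). The within-array difference between Serpinc1 and Serpind1 rose from 0.74 ± 0.16 to 2.06 ± 0.23 (SD, 4 arrays each), so their changes were unequal by 1.32 (exact permutation, two-sided, adjusted p = 0.0413). Of the 18 pairs of relatives set up for this comparison 13 had both genes measured, and p-values were adjusted over these 13. The smallest exact p that 4 against 4 arrays can give is 0.0286.

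The clade F members, Serpinf1 (pigment epithelium-derived factor, which blocks blood vessel growth) and Serpinf2 (alpha-2-antiplasmin, which stops plasmin), did not pass. Serpinf1 read 10.92 to 11.32 in controls and 10.72 to 11.12 in tumours, with a change of -0.12 (SE 0.12, adjusted p = 0.52 in limma). Serpinf2 read 9.58 to 10.66 in controls and 8.91 to 10.17 in tumours, with a change of -0.39 (SE 0.30, adjusted p = 0.386). The groups overlapped for both. Their changes differed from each other by 0.27, which was within the spread between arrays (adjusted exact p = 0.464).

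Serping1, the clade G serpin and inhibitor of complement C1 and of plasma kallikrein, fell 4.49-fold. It read 12.42, 11.73, 11.88 and 12.28 in controls and 9.79, 10.41, 10.26 and 9.18 in tumours, without overlap (-2.17, SE 0.26, adjusted p = 0.000107 in limma). Of 17 measured proteases that plasma serpins meet 10 were lower, 1 higher and 6 not past the threshold, with a median of -0.91, against 12.7% of all genes lower and 16.2% higher. Among them F9, a coagulation factor, had the largest fall (-3.88, SE 0.30). The 1 rise was Plau, the urokinase, (0.43, SE 0.11), with both group means under background.

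Alpha-1-antitrypsin, which protects tissue from neutrophil elastase, is encoded in mice by a row of near-identical genes, so probes can be shared between them. Serpina1c read 11.83, 11.58, 11.24 and 11.46 in controls and 10.74, 10.76, 10.99 and 10.39 in tumours (-0.81, SE 0.16, adjusted p = 0.00265 in limma). Serpina1d read 8.50, 7.82, 7.70 and 8.14 in controls and 6.92, 6.99, 6.92 and 5.80 in tumours (-1.38, SE 0.27, adjusted p = 0.00287). Neither gene's groups overlapped, and how the paralogs share these signals is uncertain. For Serpina1d tumour 4 was under background, so the size of its fall is uncertain. A further pair of probe sets carries the symbols of 5 Serpina1 genes together and was in no gene-wise fit. These changed by -1.03 and -1.20, from 12.11 ± 0.07 to 11.08 ± 0.21 and from 12.38 ± 0.14 to 11.18 ± 0.25 (SD, n = 4 and 4; exact permutation p = 0.0286 for each, unadjusted). Serpina1f, the more distant member of the row, had both means at background.

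Serpina3n, a mouse counterpart of alpha-1-antichymotrypsin and an acute phase gene, fell in the tumours. It read 11.25, 10.07, 9.82 and 10.44 in controls and 6.25, 8.60, 7.61 and 6.14 in tumours, a 9.46-fold fall (-3.24, SE 0.52, adjusted p = 0.000754 in limma). The groups did not overlap, but tumours 2 and 3 were well above tumours 1 and 4. Tumour 4 was under background and tumour 1 close to it, so the size of the fall is uncertain. Serpina3a and Serpina3b of the same row had both means at background. The other Serpina3 genes were not analysed here.

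Both hormone carriers of clade A fell. Serpina6, corticosteroid-binding globulin, read 12.13, 12.15, 12.52 and 12.11 in controls and 11.68, 11.56, 12.002 and 11.47 in tumours (-0.55, SE 0.14, adjusted p = 0.0135 in limma). Serpina7, thyroxine-binding globulin, read 10.25, 7.77, 7.87 and 8.61 in controls and 5.67, 7.39, 6.48 and 5.84 in tumours (-2.28, SE 0.54, adjusted p = 0.00855). No tumour reached the lowest control for either gene, although for Serpina7 control 1 stood above the other controls and tumours 1 and 4 lay under background. The difference between their changes, 1.73, did not pass (adjusted exact p = 0.111).

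Other clade A members were lower or short of the threshold. Serpina12, known as vaspin from fat tissue, read 8.02, 7.55, 8.76 and 8.72 in controls and 6.43, 5.04, 6.04 and 6.12 in tumours (-2.36, SE 0.33, adjusted p = 0.000325 in limma). Its tumour mean of 5.91 was under background, so the 5.12-fold fall is a limit rather than an exact size. Serpina11, which has no well-known target, read 8.68, 7.99, 8.24 and 9.44 in controls and 7.73, 7.78, 7.81 and 7.35 in tumours (-0.92, SE 0.27, adjusted p = 0.0262), a call that was lost without control 1 (0.0589), tumour 1 (0.0525) or tumour 4 (0.0715). Serpina10, the protein Z-dependent inhibitor of factor Xa, read 11.31, 9.68, 10.30 and 10.41 in controls and 9.76, 9.82, 9.57 and 9.32 in tumours (-0.81, SE 0.28, adjusted p = 0.0571), and passed without control 2 (0.0103). Serpina5, the protein C inhibitor, read 6.89 to 8.08 in controls and 6.64 to 7.13 in tumours (-0.60, SE 0.22, adjusted p = 0.0718), and passed without control 2 (0.0206). Serpina9 and Serpina16, with Serpina1f, Serpina3a and Serpina3b, were the 5 clade A members with both means at background, and their changes lay between -0.34 and -0.03.

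In the RefSeq table (assembly GRCm38.p6, used for order only) 14 of the 15 clade A members lie on chromosome 12. Of these 7 were lower and none higher, against 12.7% and 16.2% of all genes. Their changes along the chromosome, from Serpina10 to Serpina3n, did not run one way: Serpina12 and Serpina4-ps1 (-2.36 and -3.10) stood beside Serpina9 and Serpina5 (-0.34 and -0.60). The 11 clade B serpins on chromosome 1 had none past the adjusted threshold in limma and 2 at an unadjusted p under 0.05. The 13 on chromosome 13 had 3 lower, all with both means under background, and 1 higher. These counts stand beside the same shares of all genes, and the chromosomes were not compared by a test.

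Of the 5 inter-alpha-trypsin heavy chains 3 fell, 1 rose and 1 did not pass. Itih1, heavy chain 1, read 10.64, 10.13, 10.48 and 10.90 in controls and 7.08, 7.51, 7.03 and 6.74 in tumours, a 10.9-fold fall (-3.45, SE 0.19, adjusted p = 4.74e-07 in limma). Itih2, heavy chain 2, which is joined to Itih1 in the plasma protein, read 12.21, 11.94, 12.41 and 12.37 in controls and 10.91, 11.63, 11.14 and 10.45 in tumours (-1.20, SE 0.22, adjusted p = 0.00193). Itih4, a heavy chain that does not bind bikunin and rises in the acute phase, read 12.53, 11.46, 11.89 and 12.10 in controls and 8.91, 8.80, 9.18 and 7.02 in tumours, an 11.4-fold fall (-3.52, SE 0.42, adjusted p = 0.000109). For these 3 chains every tumour was below every control, with tumour 4 the lowest each time.

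Itih3, heavy chain 3, did not pass. It read 12.47, 11.28, 11.28 and 11.71 in controls and 11.30, 11.54, 11.50 and 10.57 in tumours, overlapping, with a change of -0.45 (SE 0.29, adjusted p = 0.293 in limma). In the RefSeq table it lies between Itih4 and Itih1, the neighbours that fell more than 10-fold. The within-array difference between Itih1 and Itih3 went from -1.15 ± 0.49 in controls to -4.14 ± 0.28 in tumours, and that between Itih3 and Itih4 from -0.31 ± 0.24 to 2.75 ± 0.56 (SD, n = 4 and 4; adjusted exact p = 0.0413 for each). Itih1 also changed more than Itih2, by 2.25 (adjusted exact p = 0.0413).

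Ambp, the precursor of bikunin and of alpha-1-microglobulin, read 12.80, 12.33, 12.43 and 12.67 in controls and 12.26, 12.21, 12.24 and 11.43 in tumours. All tumours lay below all controls and the change of -0.52 (SE 0.19, adjusted p = 0.0692 in limma) did not pass. Ambp and Itih1 differed in their changes by 2.93 (adjusted exact p = 0.0413).

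Itih5, a heavy chain of connective tissue rather than of plasma, rose. It read 5.48, 5.51, 5.68 and 5.35 in controls and 7.18, 7.36, 6.70 and 6.76 in tumours (1.5, SE 0.15, adjusted p = 3.97e-05 in limma). The control mean was under background, so its 2.83-fold rise is a limit. It neighbours Itih2, which fell, on chromosome 2. Of 10 measured genes of hyaluronan and heavy chain transfer 3 were higher and 1 lower, against 16.2% and 12.7% of all genes. Hmmr, a hyaluronan-binding spindle protein, had the largest measured rise (5.32, SE 0.27; its control mean was under background, so the size is a limit), and Stab2, a hyaluronan clearance receptor of sinusoidal endothelium, the 1 fall (-1.53, SE 0.17).

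Ahsg and Fetub both fell, but unequally. Ahsg, fetuin-A, which keeps calcium phosphate from precipitating in blood, read 12.54, 12.21, 12.50 and 12.65 in controls and 11.20, 11.98, 11.87 and 10.42 in tumours (-1.11, SE 0.30, adjusted p = 0.0165 in limma). Fetub, fetuin-B, which keeps the egg coat penetrable by inhibiting ovastacin, read 11.03, 10.65, 10.82 and 10.80 in controls and 6.56, 8.28, 7.59 and 6.22 in tumours, a 12.7-fold fall (-3.66, SE 0.38, adjusted p = 3.85e-05). For Fetub tumour 4 was close to background, so the size of its fall is uncertain. The within-array difference between Ahsg and Fetub went from 1.65 ± 0.15 to 4.20 ± 0.39 (SD, n = 4 and 4, adjusted exact p = 0.0413).

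Pzp, the constitutive macroglobulin of mouse plasma, fell 5.50-fold. It read 13.11, 12.75, 12.85 and 12.96 in controls and 9.74, 11.62, 10.75 and 9.73 in tumours (-2.46, SE 0.36, adjusted p = 0.000453 in limma). A2m read 9.94, 6.81, 6.14 and 6.44 in controls and 9.66, 9.54, 7.86 and 8.76 in tumours, and its change of 1.63 (SE 0.75, adjusted p = 0.142) did not pass. Control 1 lay above every tumour, and the other 3 controls below every tumour. Without control 1 the change was 2.49 (SE 0.39, adjusted p = 0.0011). A2m relative to Pzp rose between the groups by 4.08 in log2 (adjusted exact p = 0.0413), with the difference -3.17 in control 1 and -6.71 to -5.94 in the other controls, against -2.89 to -0.07 in tumours.

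**Figure D3:**
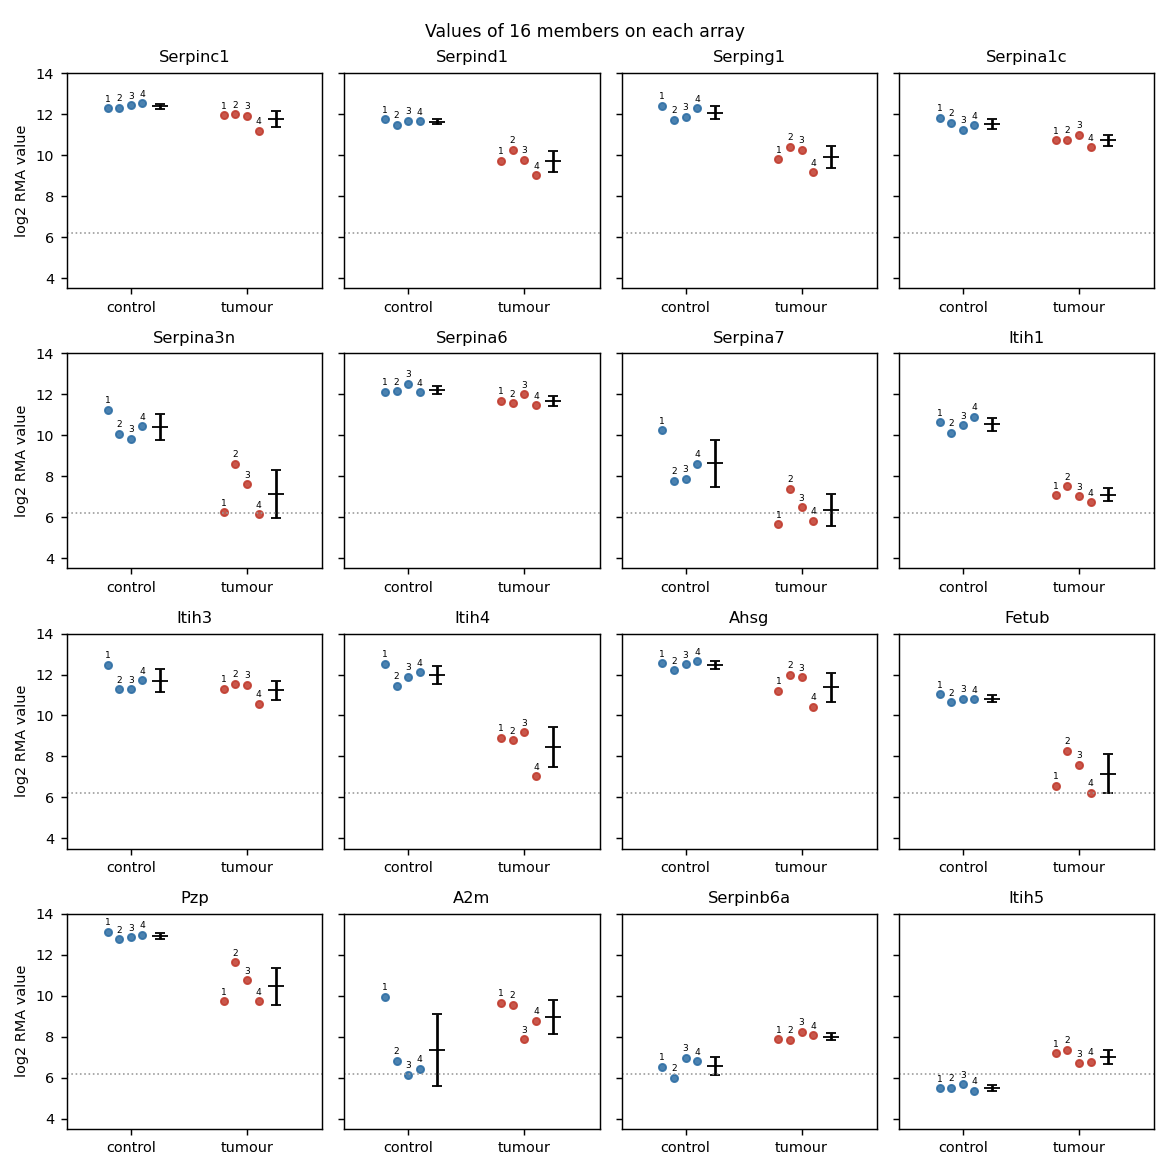
Log2 RMA values of 16 members on each array, controls in blue and tumours in red, numbered by replicate; black bars give the mean ± SD of 4 arrays and the dotted line is the background level of 6.20. The groups overlap for Itih3 and A2m and not for the other 14. Tumours 2 and 3 lie above tumours 1 and 4 for Serpina3n, Serpina7, Ahsg, Fetub and Pzp, and also for Serpind1, Serping1, Serpina1c and Itih3.

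**Figure D4:**
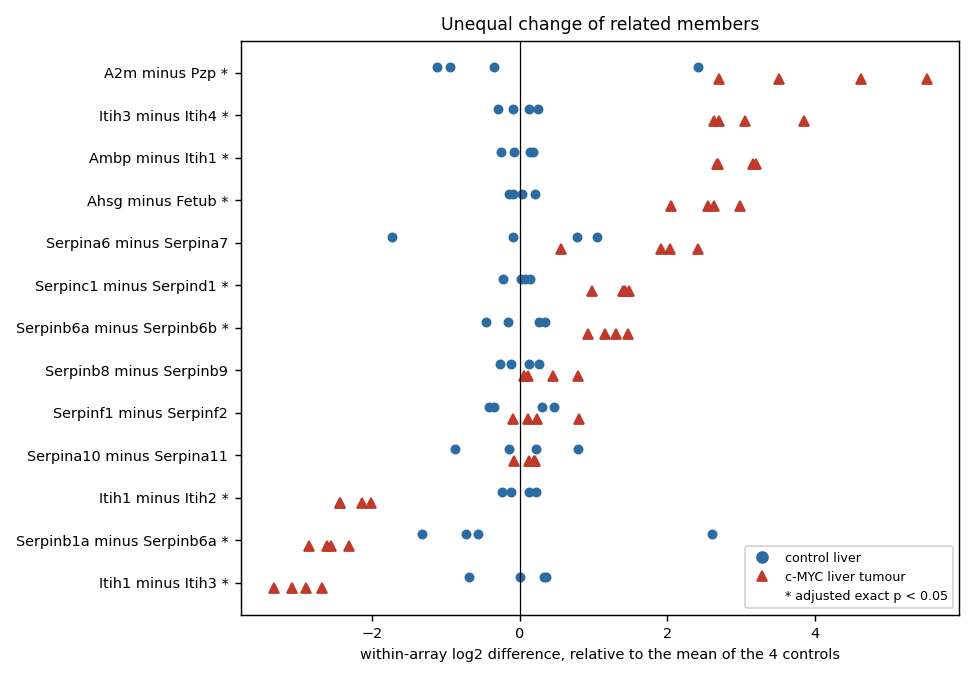
Within-array log2 difference of 13 pairs of related members, each shifted so that the 4 controls average 0; circles are controls and triangles tumours. For the 9 pairs marked with an asterisk (adjusted exact p = 0.0413), among them Itih1 with Itih3 and Ahsg with Fetub, all 4 tumours lie to one side of all 4 controls.

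Clade B serpins were mostly at background. Serpinb6a, an intracellular inhibitor of cathepsin G and other granule proteases, was the 1 clade B member that rose. It read 6.54, 5.98, 6.97 and 6.80 in controls and 7.86, 7.84, 8.23 and 8.07 in tumours, a 2.68-fold rise (1.42, SE 0.20, adjusted p = 0.000291 in limma). Its paralog Serpinb6b read 6.38, 6.12, 6.39 and 6.15 in controls and 6.08, 6.60, 6.62 and 6.60 in tumours (0.21, SE 0.14, adjusted p = 0.309), and passed only without tumour 1 (0.0483). The changes of the pair differed by 1.21 (adjusted exact p = 0.0413).

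The 3 lower clade B members had both means under background. Serpinb9, the granzyme B inhibitor of lymphocytes, read 5.81, 5.35, 6.24 and 5.51 in controls and 4.79, 4.71, 5.04 and 4.86 in tumours (-0.88, SE 0.18, adjusted p = 0.0036 in limma). Serpinb9d changed by -0.51 (SE 0.15, adjusted p = 0.023) and Serpinb6e by -0.42 (SE 0.13, adjusted p = 0.0324). Both are paralogs in rows of similar genes. The call of Serpinb9d was lost without tumour 1 (0.0662) or tumour 3 (0.0562), and that of Serpinb6e without control 1 (0.0863), control 2 (0.0895), tumour 1 (0.0566), tumour 2 (0.0607) or tumour 3 (0.0982). Serpinb8, a furin inhibitor, read 5.73 to 6.86 in controls and 5.40 to 5.99 in tumours (-0.52, SE 0.22, adjusted p = 0.114), and passed without control 2 (0.0408). Of 12 granule and cysteine proteases that clade B serpins meet, 1 was lower and none higher (1 higher at an unadjusted p under 0.05 in limma). The lower one was Ctsh, a lysosomal cathepsin (-1.52, SE 0.22). Over all genes 12.7% were lower and 16.2% higher. None of the 8 neutrophil or 8 T, NK and B cell markers measured passed the adjusted threshold in limma, and none of either list did at an unadjusted p under 0.05. The mean level of the lymphocyte list was 5.44 to 5.93 in controls and 5.64 to 5.65 in tumours. Of 8 Kupffer cell and macrophage markers 2 were higher and 2 lower, with the largest rise in Cd68 (2.11, SE 0.26) and the largest fall in Vsig4 (-2.38, SE 0.50), and a mean level of 7.53 to 8.32 in controls and 7.45 to 7.98 in tumours. The part of these cells in the clade B values was not tested.

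Serpinb2, plasminogen activator inhibitor-2 of macrophages, was singled out after its values were seen. It read 7.69 in tumour 2 and between 5.50 and 5.73 on the other 7 arrays. Its change was 0.59 (SE 0.40, adjusted p = 0.328 in limma). The remaining clade B members, none of them called, changed by between -0.27 and -0.004 except for Serpinb1a.

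Serpinh1, the collagen chaperone HSP47 of the endoplasmic reticulum and no protease inhibitor, rose. It read 5.98, 6.32, 6.19 and 6.43 in controls and 6.95, 7.03, 6.75 and 7.35 in tumours, a 1.73-fold rise (0.79, SE 0.15, adjusted p = 0.00197 in limma). The control mean of 6.23 was close to the background of 6.20, with controls 1 and 3 under it, so the size of the rise is uncertain. Of 12 collagen folding partners and collagens 2 were higher and 1 lower (16.7% and 8.33%). Over all genes 16.2% were higher and 12.7% lower, so the counts of this list were near those shares. Its largest rise was that of Plod2, a lysyl hydroxylase (0.65, SE 0.13), with both means under background. Its fall was that of P4ha2, a prolyl hydroxylase subunit (-0.47, SE 0.11). The stellate cell and fibroblast markers had 3 of 8 lower and none higher (1 higher at an unadjusted p under 0.05 in limma), with a mean level of 7.30 to 7.61 in controls and 6.87 to 7.19 in tumours; their part in the rise of Serpinh1 was not tested. Serpine3 (-0.19, SE 0.13, adjusted p = 0.34) did not pass, and the neuroserpin gene Serpini1 and the pancreatic gene Serpini2 had both means at background.

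Control liver 3 stood apart for a pair of members. Serpinb1a, the leukocyte elastase inhibitor, read 9.31 there and 4.96, 5.16 and 5.83 in the other controls, against 4.997 to 5.27 in tumours. Its change of -1.15 (SE 0.78, adjusted p = 0.331 in limma) became -0.16 (SE 0.19, adjusted p = 0.633) without that array. Set against Serpinb6a within each array, it went from a difference of -0.26 ± 1.76 in controls, with 2.34 in control 3, to -2.83 ± 0.22 in tumours (SD, n = 4 and 4; adjusted exact p = 0.0413). Serpina4-ps1, a pseudogene by its symbol, went the other way: it read 6.49 in control 3, 11.76, 11.46 and 11.27 in the other controls and 7.04 to 7.35 in tumours. Its change of -3.10 (SE 0.97, adjusted p = 0.0349) was -4.35 without control 3 (SE 0.14, adjusted p = 4.77e-08). The call was lost without any other array, with adjusted p between 0.0631 and 0.101. Xist, the RNA of the inactive X chromosome, read 11.89 in control 3 and 4.86 to 7.12 on the other 7 arrays, and the Y-linked gene Eif2s3y read 3.46 there and 8.56 to 9.37 elsewhere. The Y-linked genes Kdm5d and Uty were also lowest in control 3 (5.39 and 3.87), and read at least 7.62 and 7.66 elsewhere. By these sex-linked genes control 3 read as female and the other 7 arrays as male, so the control group was of mixed sex. Whether sex sets the values of Serpinb1a and Serpina4-ps1 was not tested, as 1 array carried this pattern.

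Control liver 1 was the highest control for other members. Among them were A2m (9.94), Serpina7 (10.25), Serpina3n (11.25), Serpina10 (11.31), Itih3 (12.47), Itih4 (12.53) and Serping1 (12.42). For Serping1 the gap was small, with control 4 at 12.28. Of the 20 members lower in tumours 11 had their highest control value in control 1, against 24.4% of all 2532 lower genes. The neutrophil genes S100a8 and S100a9, singled out after their values were seen, read 7.62 and 8.25 in control 1 and at most 5.51 and 6.43 in the other controls. Among the other neutrophil markers Ly6g, Mpo, Ngp and Retnlg were also highest in control 1. Elane was lowest there (5.86), and Camp (6.09) was below controls 2 and 3 (6.44 and 6.26). The part of neutrophils in these members' values was not tested. Without control 1, 17 members were lower and 4 higher, A2m being the added one. Without controls 1 and 3 together, a choice made after the values were seen, 15 were lower and 4 higher.

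**Figure D5:**
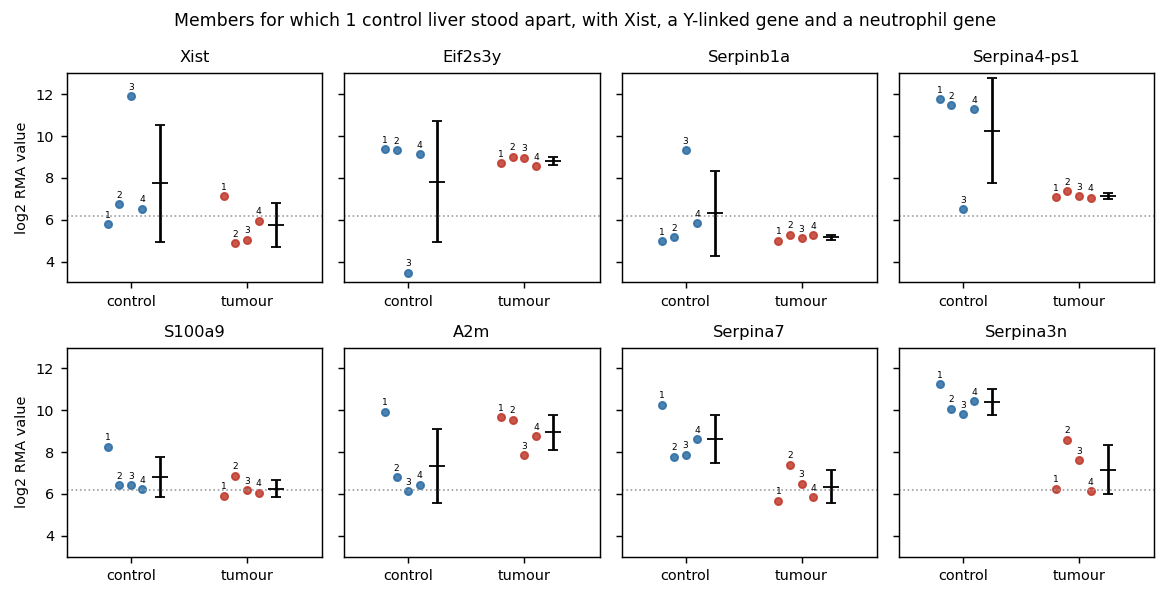
Log2 RMA values on each array of 5 members and of Xist, the Y-linked gene Eif2s3y and the neutrophil gene S100a9, numbered by replicate, with mean ± SD of 4 arrays and the background level as a dotted line. Control 3 is highest for Xist and Serpinb1a and lowest for Eif2s3y and Serpina4-ps1, and control 1 is highest for S100a9, A2m, Serpina7 and Serpina3n.

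Tumours also differed among themselves. Of the 20 members lower in tumours 15 were lowest in tumour 4 and 13 were highest in tumour 2. Among all 2532 genes lower in tumours these shares were 37.6% and 34.5%. The mean of the hepatocyte markers was 10.17 in tumour 4 and 10.40 in tumour 2, and 10.15 and 10.20 in tumours 1 and 3. Among these markers Alb, Apoa1, Ttr, Apob and Hnf4a were lowest in tumour 4. Cps1 and Tat were lowest in tumour 1 and Cyp2e1 in tumour 3. Cyp2e1, close to background in the tumours, was highest in tumour 4 (7.05, against 5.47 to 6.43 in the others). Tumour 4 had the lowest array weight, 0.43, and without it 18 members were lower and 3 higher.

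Other inhibitors and regulators from the lists gave a mixed picture, to be read beside the 12.7% of all genes that were lower and the 16.2% higher. Of 24 protease inhibitors outside the family 3 were higher and 6 lower, with a median of -0.01. Spink1, a trypsin inhibitor of pancreas, rose from a control mean of 4.45, under background, to 9.63 in tumours (5.18, SE 0.17, a limit), and Mug1, a murinoglobulin and relative of Pzp, fell from 12.20 to 6.08, under background (-6.12, SE 0.37, a limit). Of 7 clearance receptors 3 were lower and 1 higher, with the largest fall in Asgr1, a subunit of the hepatocyte asialoglycoprotein receptor (-2.78, SE 0.26), and the 1 rise in Lrp2, or megalin (1.04, SE 0.13; control mean under background, so a limit). Of 12 factors known to drive liver serpin genes 7 were lower and none higher (0 higher at an unadjusted p under 0.05 in limma), with a median of -0.51. Il6st, the shared receptor chain of interleukin-6 signalling, had the largest fall (-1.53, SE 0.19). Of 12 genes of the secretory pathway 4 were lower and none higher (0 higher at an unadjusted p under 0.05 in limma). The largest fall was that of Mia3, a cargo factor for large proteins (-1.30, SE 0.13).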

How the data were processed

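The deposited values are log2 RMA values, 1 per probe set and array; per the submitters' processing notes the authors used RMA in R 3.0.2. The RMA settings, the summarisation level and any filter are not given in the sources used here. Array medians were 6.33 to 6.44 on the log2 scale. Of 34760 probe sets, 11799 had no gene in the platform annotation and 1321 had several symbols; the 21640 with 1 symbol gave 19937 genes, each by its probe set of highest mean. No member had more than 1 such probe set. Groups were compared with limma 3.58.1 (lmFit and eBayes, R 4.3.3) and Benjamini-Hochberg adjustment over all genes, and pairs of members by exact permutation of within-array differences over the 70 splits of 4 and 4 arrays. The steps were tested on simulated data. Members were named if past the threshold, or if a group mean exceeded background, and of other lists the largest rise and fall past the threshold. The members and lists were chosen with earlier results of these data known. Alternatives were quantile normalization, median centring, a dim-gene filter, a variance trend, array weights, a replicate block, the mean of probe sets, a test against a 1.5-fold change, and leaving out arrays. The number of arrays limits the precision. Probe sets with several symbols were left out of the gene-wise fit because their signal cannot be assigned to 1 gene. No scan or hybridisation batch was used here.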

Additional observations from a re-analysis of the deposited data

Results flagged for a closer look

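In 7 of 68 groups of 4 arrays tested, 1 array stood far from the other 3; chance flags about 1 in 20 groups. Tumour 4 was the low one for 4 members: Ambp at 11.43 (others 12.21 to 12.26), Serpina11 at 7.35 (others 7.73 to 7.81), Serpina1d at 5.80 (others 6.92 to 6.99) and Serpinc1 at 11.20 (others 11.92 to 11.99). Tumour 1 was low for Serpinb6b at 6.08 (others 6.60 to 6.62). Control liver 3 was low for Serpina4-ps1 at 6.49 (others 11.27 to 11.76) and high for Serpina6 at 12.52 (others 12.11 to 12.15).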

How the results depend on the processing

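Counts of members higher and lower stayed within 1.5 times the reported ones under every alternative run, except the test against a 1.5-fold change. That test called 8 members lower in place of 20, with 3 of clades A, C, D and F in place of 10 and 5 others in place of 10. Leaving out each array gave 16 to 21 members lower and 3 to 4 higher, with 8 to 11 of clades A, C, D and F and 8 to 10 others lower. Of the 23 members called, 10 were called under all 17 alternatives and 13 were lost under at least 1; of the 11 named members not called, 6 passed under at least 1. No named member's change turned its sign. The difference between the changes of Serpina10 and Serpina11, 0.11, ranged from -0.18 without control liver 4 to 0.38 without control liver 1, and the cause was not tested. Array weights and the variance trend ended the call of Serpina4-ps1 (adjusted p = 0.0535 and 0.115 in limma). Quantile normalization brought Serpina10 and Ambp past the threshold (0.0318 and 0.0345). With the replicate number as a block 19 members were lower and 4 higher: A2m passed (0.0308) and Serpina11 did not (0.0533). Arrays of the same number deviated from their group means with correlations of -0.06, 0.005, 0.05 and -0.32, so the numbers were not taken as pairs. Pairs past the threshold numbered 9 under both alternatives tried. Calls of pairs with an array left out are not reported here. Members with both group means at background have no shown level.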
